A study of Gallus gallus with 6 samples.

Results

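AURKB, KNSTRN, NEK2, NCAPG, SMC2, STIL, BUB1, TTK, NDC80 and NUF2 encode proteins that condense, attach and pull apart the chromosomes of a dividing cell. Their transcripts were followed in 3 tissues from follicles and ovulated oocytes of the hen. They were read through every probe set of the chicken Affymetrix array that carries 1 of these symbols alone in the platform annotation. The 10 genes are 10 of the 13009 measured genes, and their 23 probe sets are 23 of 38439. The genes were chosen by their levels on these same arrays, which were known to stand higher in the germinal disc region than in granulosa cells, so the differences from granulosa cells are given as a description. Counts of these genes that passed a threshold are printed beside the share of all genes that did, and no p-value is given for any of the 10.

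The study compared 3 groups with 2 arrays each. Ov GDR is the germinal disc region of ovulated oocytes, the disc of cytoplasm with the oocyte nucleus on top of the yolk, and was collected free of granulosa cells. F1 GDR is the same region of the F1 follicle, the largest one before ovulation, and it keeps some granulosa cells that could not be removed. F1 GCs are granulosa cells of that follicle taken from around the disc. All tissues came from untreated laying hens of the ISA Brown line at about 60 weeks of age, kept under 14 h of light and 10 h of dark per the labels, and each array holds RNA of tissue pooled from 25 hens. Group values are thus means of 2 pools. The arrays of a group are told apart by the suffix A in the label of 1 of them, and the array without a suffix is named first below. The labels do not say whether the same hens gave tissue to several pools.

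In mitosis and meiosis, condensin folds chromosomes into compact rods, the kinetochore assembles on each centromere and binds spindle microtubules, and the spindle checkpoint holds anaphase back until every kinetochore is attached. Centrosomes organise spindle poles in dividing somatic cells. A full-grown oocyte transcribes little and stores messenger RNA for its meiotic divisions and for the rapid cleavages of the early embryo, which precede the activation of the embryonic genome.

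Values are log2 gcrma values. Background was taken as the top value on each array among 23 controls whose sequences are foreign to hen RNA, and it lay between 2.76 and 3.28. Between 36.6% and 51.4% of all probe sets were above it, with the lowest share on the Ov GDR array without a suffix, which stood apart from the rest. On that array the 3′ minus 5′ signal of the control transcripts, which grows as RNA is broken or incompletely copied, was 5.02 for actin, 4.51 for EEF1A and 2.82 for GAPDH, against 1.53, 1.48 and 0.11 on Ov GDR A and 0.54 to 3.57 on the arrays of the other groups. The paper reports that ribosomal RNA of the germinal disc region seemed degraded from ovulation until oviposition, whichever extraction method was used. It found messenger RNA almost unaffected. The make-up of total RNA thus differed between Ov GDR and the other groups, and its part in the values was not tested. The tissue labels were checked against marker genes. Of 7 germ line markers 4 or 5 were above background on each germinal disc array, and 4 and 2 on the F1 GCs arrays. Their log2 summed level was 9.41 to 10.0 on the germinal disc arrays, and 5.93 and 5.38 in F1 GCs. DDX4 and BMP15, 2 of these germ line markers, were at background on all 6 arrays. By real time PCR the paper found both preferentially expressed in the germinal disc region. The summed level of 9 granulosa markers was 14.2 on both F1 GCs arrays, 13.4 and 13.0 in F1 GDR and 12.2 and 12.0 in Ov GDR. Most of the sum in Ov GDR came from FOXL2 alone, at 12.02 and 11.71. CYP11A1, which starts steroid synthesis, was at 2.71 and 3.18 in Ov GDR, at 10.73 and 10.13 in F1 GDR and at 11.94 and 11.97 in F1 GCs. The F1 GCs means of the granulosa markers AMH, FST and FOXL2 were below those of both germinal disc groups, and FSHR differed by −0.01 between F1 GDR and F1 GCs. The summed log2 level was 5.21 to 7.06 for theca and stroma, 5.27 to 5.73 for blood and endothelium, 4.68 to 5.17 for immune cells and 4.02 to 4.10 for epithelium, whose 3 measured markers were at background on every array.

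All 10 genes, each read through its brightest probe set, were above background on both Ov GDR and both F1 GDR arrays. In F1 GCs 4 of them were above background on both arrays and 6 on 1 array only, the array without a suffix. In every gene the lowest germinal disc array stood above the highest F1 GCs array. The distance from the lowest F1 GDR array to the highest F1 GCs array ran from 1.18 on the log2 scale for TTK to 4.61 for KNSTRN. From the lowest Ov GDR array it ran from 0.11 for TTK to 5.66 for KNSTRN.

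**Figure D1:**
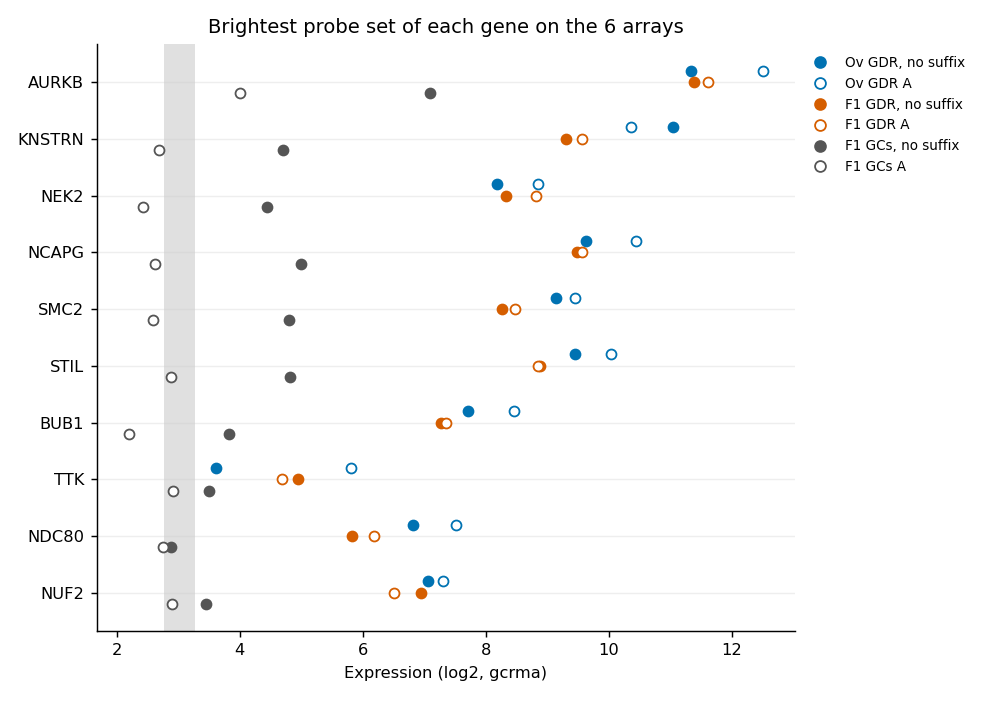
Log2 expression (horizontal axis) of the brightest probe set of each of the 10 genes on each of the 6 arrays (filled points: array without a suffix; open points: array A; grey band: range of the array backgrounds). The germinal disc arrays stand right of both F1 GCs arrays in every gene, with the narrowest gap in TTK, and the F1 GCs arrays stand apart from each other in most genes.

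AURKB is the kinase of the chromosomal passenger complex, which releases wrong attachments between kinetochores and microtubules. Its only probe set read 11.34 and 12.51 in Ov GDR, 11.39 and 11.62 in F1 GDR, and 7.09 and 4.0 in F1 GCs. AURKB was above background on all 6 arrays, and the F1 GCs arrays differed by 3.09, the widest distance among the 10 genes. The mean difference was 5.96 between F1 GDR and F1 GCs (62.4-fold, SE 1.09 on the log2 scale) and 6.38 between Ov GDR and F1 GCs (83.4-fold). The platform annotation gives this probe set the symbol AURKB, whereas the sequence search of the study gave it the name of another gene, so its identity rests on the annotation.

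NDC80 and NUF2 are partner subunits of the NDC80 complex, the part of the outer kinetochore that grips the microtubule. NDC80 read 6.82 and 7.52 in Ov GDR, 5.83 and 6.18 in F1 GDR, and 2.89 and 2.75 in F1 GCs, where it was close to background on both arrays. Its mean was higher than in F1 GCs by 3.19 in F1 GDR (9.12-fold, SE 0.34 on the log2 scale) and by 4.35 in Ov GDR (20.4-fold). NUF2 read 7.07 and 7.30 in Ov GDR, 6.96 and 6.50 in F1 GDR, and 3.44 and 2.90 in F1 GCs. The 2 partners thus had alike profiles, with F1 GCs arrays that differed by 0.14 for NDC80 and 0.54 for NUF2. The difference of NUF2 from F1 GCs was 3.56 in F1 GDR (11.8-fold, SE 0.34) and 4.01 in Ov GDR (16.1-fold).

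KNSTRN, a protein of spindle and kinetochore that works with the SPAG5 protein to hold chromatids and spindle in place, had the largest difference between Ov GDR and F1 GCs of the 10 genes. It read 11.04 and 10.36 in Ov GDR, 9.31 and 9.56 in F1 GDR, and 4.70 and 2.68 in F1 GCs. The mean difference was 7.01 between Ov GDR and F1 GCs (129-fold, SE 0.73) and 5.74 between F1 GDR and F1 GCs (53.5-fold). KNSTRN was the only gene of the 10 with a higher value on the Ov GDR array without a suffix than on Ov GDR A.

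BUB1 and TTK are kinases of the spindle checkpoint. BUB1, which also marks the centromere for the shugoshin proteins, read 7.71 and 8.47 in Ov GDR, 7.27 and 7.35 in F1 GDR, and 3.83 and 2.19 in F1 GCs. The mean differences from F1 GCs were 4.30 in F1 GDR (19.7-fold, SE 0.64) and 5.08 in Ov GDR (33.7-fold). TTK, which starts the checkpoint signal at unattached kinetochores, was the dimmest and the least different of the genes. Its values were 3.61 and 5.81 in Ov GDR, 4.95 and 4.69 in F1 GDR, and 3.51 and 2.91 in F1 GCs. The Ov GDR array without a suffix was thus only just above the higher F1 GCs array, while Ov GDR A was the highest of all. The mean of TTK was higher than in F1 GCs by 1.61 in F1 GDR (3.06-fold, 95% interval −0.40 to 3.63 on the log2 scale) and by 1.5 in Ov GDR (2.84-fold, −0.51 to 3.52).

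SMC2 and NCAPG belong to condensin. SMC2, an ATPase of the core of both condensin complexes, read 9.15 and 9.45 in Ov GDR, 8.26 and 8.48 in F1 GDR, and 4.80 and 2.59 in F1 GCs. NCAPG, a regulatory subunit of condensin I, read 9.63 and 10.44 in Ov GDR, 9.49 and 9.57 in F1 GDR, and 5.00 and 2.63 in F1 GCs. Both were at background on F1 GCs A and well above it on the other F1 GCs array. SMC2 differed from F1 GCs by 4.67 in F1 GDR (25.5-fold, SE 0.77) and by 5.60 in Ov GDR (48.6-fold). For NCAPG these differences were 5.72 (52.6-fold, SE 0.85) and 6.22 (74.3-fold).

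NEK2 and STIL act at the centrosome. NEK2, a kinase that dissolves the link between centrosomes before mitosis, read 8.19 and 8.85 in Ov GDR, 8.33 and 8.82 in F1 GDR, and 4.44 and 2.43 in F1 GCs. STIL, a scaffold of centriole duplication, read 9.45 and 10.04 in Ov GDR, 8.88 and 8.85 in F1 GDR, and 4.82 and 2.88 in F1 GCs. The germinal disc groups overlapped for NEK2 and did not for STIL. NEK2 was 35.2-fold higher in F1 GDR than F1 GCs (5.14 on the log2 scale, SE 0.76) and 33.9-fold higher in Ov GDR. STIL was 32.4-fold higher in F1 GDR (5.02, SE 0.71) and 59.7-fold higher in Ov GDR.

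Between F1 GDR and F1 GCs 8 of the 10 genes passed an adjusted p under 0.05 as higher in F1 GDR (limma, Benjamini-Hochberg over all probe sets), beside 4.34% of all 13009 genes. The exceptions were AURKB and TTK. Between Ov GDR and F1 GCs 9 passed as higher in Ov GDR, beside 10.1% of all genes, and TTK did not. All 10 genes had no overlap between the groups in either comparison, as had 40.3% of all genes as higher in F1 GDR and 51.6% as higher in Ov GDR. The median difference of the 10 genes was 4.85 from F1 GDR and 5.34 from Ov GDR, while the medians over all genes were 0.03 and 0.08. Since the genes were picked on these levels, nothing is read from the counts. Both comparisons share the F1 GCs arrays. In bulk tissue, fewer cells of a type and less RNA per cell cannot be told apart.

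**Figure D2:**
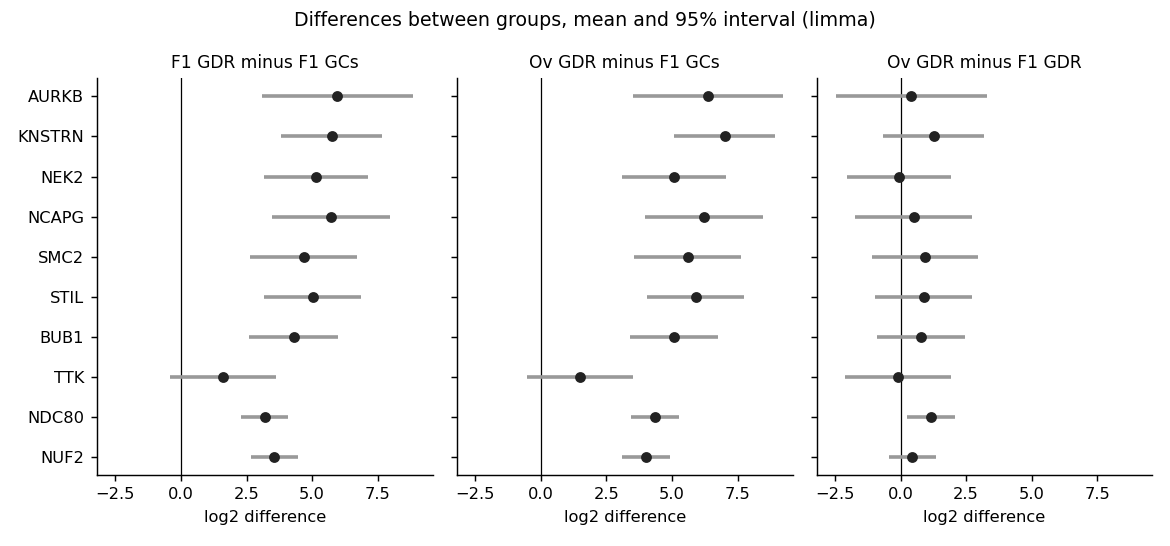
Mean log2 difference (point) with its 95% interval from limma (bar) for each of the 10 genes in the 3 comparisons of groups. The intervals of all genes but TTK lie above 0 against F1 GCs, from 3.19 to 5.96 for F1 GDR and from 4.01 to 7.01 for Ov GDR as means, and all but that of NDC80 include 0 between the germinal disc groups. Since the genes were picked on these levels, the intervals against F1 GCs are a description and no test.

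The folds against F1 GCs depended on which F1 GCs array was used. Without F1 GCs A the differences of the 10 genes from F1 GDR ran from 1.31 to 4.73 with a median of 3.81, and without the other F1 GCs array from 1.91 to 7.51 with a median of 5.88. From Ov GDR the medians were 4.39 and 6.40. Fewer of the genes were called higher in F1 GDR whichever of the 6 arrays was left out. Fewer were called in Ov GDR without F1 GCs A or either F1 GDR array. Without F1 GCs A the calls of all probe sets as higher than in F1 GCs fell as well. Such fits leave a single array in a group, so their counts are not printed. With the plain t-test 0 of the 10 genes passed as higher in F1 GDR. At an unadjusted p under 0.05 it gave 8 and limma 9, beside 2022 and 1942 of all 13009 genes. TTK in Ov GDR rested on Ov GDR A, without which its difference from F1 GCs was 0.41.

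The distance between the F1 GCs arrays was itself shared by the brightest probe sets of the genes. By these probe sets all 10 genes were higher on the array without a suffix than on F1 GCs A, by a median of 1.98 on the log2 scale. For 7 of them the distance was over 1, which was so for 1.51% of all genes. AURKB, KNSTRN, NEK2, NCAPG, SMC2, STIL and BUB1 were these 7, whereas TTK, NDC80 and NUF2 differed by 0.14 to 0.60. The 13 further probe sets of the genes, described below and mostly dim, did not share this distance. Of these, 7 were higher on F1 GCs A, and the median distance was 0.001. They ran from −0.735 for a probe set of TTK to 1.30 for KNSTRN's second one. Of the other genes of the pathway 18 of 98 differed by over 1, with a median of 0.34. The 7 germ line markers differed by −0.02 to 1.09, with a median of 0.11 and with BTG4, DAZL and ZP2 higher on the same array by 1.09, 1.03 and 0.89, and the 9 granulosa markers differed by −0.55 to 0.53. The labels give 7 µg of total RNA for the array without a suffix and 14 µg for F1 GCs A. The methods of the paper give a single, smaller amount for reverse transcription, so the input of each array is not settled. The part of germ line RNA or of RNA amount in the distance was not tested.

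**Figure D3:**
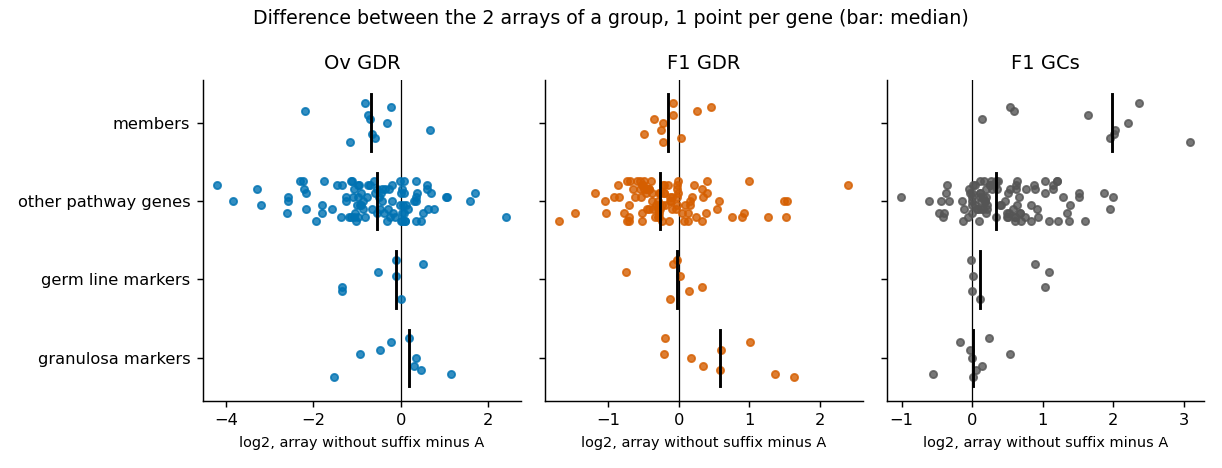
Log2 difference between the array without a suffix and array A of each group (horizontal axis), with 1 point per gene (brightest probe set). Bars mark the medians of the 10 genes, the other pathway genes, 7 germ line markers and 9 granulosa markers. In F1 GCs the 10 genes lie right of 0 with a median of 1.98, and in Ov GDR 9 of the 10 lie left of 0 with a median of −0.68.

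In Ov GDR the distance ran the other way, with 9 of the 10 genes higher on array A, by a median of 0.68, and TTK by 2.20. In F1 GDR the 10 genes differed between the arrays by −0.49 to 0.46. F1 GDR was thus the group with the closest arrays for the brightest probe sets of these genes.

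F1 GDR keeps granulosa cells and Ov GDR does not, so stage and cell content change together between these groups. The granulosa marker CYP11A1 had means of 10.43 in F1 GDR and 2.94 in Ov GDR. Of the 9 granulosa markers 5 had a lower mean in Ov GDR than F1 GDR, with differences from −7.73 for HSD3B1 to −3.32 for STAR. The other 4, FSHR, AMH, FST and FOXL2, had a higher mean in Ov GDR, by 0.06 to 0.62. The part of granulosa cells in the differences below was not tested. Between Ov GDR and F1 GDR 8 of the 10 genes had a higher mean in Ov GDR, as had 7637 of all 13009 genes. TTK and NEK2 had differences of −0.11 and −0.06. KNSTRN had the largest difference, 1.27 (2.41-fold, SE 0.73), followed by NDC80 with 1.16 (2.24-fold, SE 0.34), SMC2 with 0.93, STIL with 0.88 and BUB1 with 0.78. Both Ov GDR arrays were above both F1 GDR arrays for 7 of the 10 genes, as for 33.8% of all genes, and the groups overlapped for AURKB, NEK2 and TTK. With limma 0 of the 10 passed an adjusted p under 0.05, beside 0.2% of all genes as higher and 3.05% as lower in Ov GDR. At an unadjusted p under 0.05 limma gave 1 gene as higher and the plain t-test 1 gene, beside 1204 and 809 of all 13009 genes. The 95% interval of the NDC80 difference ran from 0.26 to 2.07, and those of the other 9 genes included 0, so that for SMC2, for example, differences from −1.10 to 2.96 were covered.

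The size of these differences depended on scaling and on single arrays. With the arrays set to equal means of ACTB, GAPDH and EEF1A1, all differences between Ov GDR and F1 GDR moved up by 0.46. KNSTRN was then called with 1.72, and the part of all calls with Ov GDR on top went from 12.6% to 54%. Most of this shift came from EEF1A1, which differed by −1.14 between Ov GDR and F1 GDR, against −0.05 for ACTB and −0.17 for GAPDH. Without Ov GDR A the median over the 10 genes was 0.37 in place of 0.64, and without the other Ov GDR array it was 0.995. With each of the 6 arrays left out in turn, KNSTRN, NDC80, SMC2, STIL, BUB1, NCAPG and NUF2 kept a positive difference. This had to be so, since their groups do not overlap. AURKB, NEK2 and TTK changed sign, with −0.17, −0.39 and −1.21 without Ov GDR A and 1.0, 0.28 and 0.99 without the other Ov GDR array.

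KNSTRN, NEK2, NCAPG, STIL, BUB1, TTK, NDC80 and NUF2 have further probe sets on the array, 13 in all, and most of them were dimmer by far. All 13 had a higher mean in F1 GDR than F1 GCs, but only 3 by more than 1, and 1 of them passed the adjusted p, beside 2.1% of all probe sets. In Ov GDR all 13 were again higher than in F1 GCs, 7 by more than 1, and 2 passed, beside 6.51% of all probe sets. The first was KNSTRN's second probe set, which read 8.82 and 8.96 in Ov GDR, 7.67 and 7.96 in F1 GDR, and 4.18 and 2.88 in F1 GCs, differences from F1 GCs of 5.36 and 4.29. The second was a probe set of NEK2 with values from 2.52 to 3.0, at background on all arrays. Between Ov GDR and F1 GDR 11 of the 13 were higher in Ov GDR and 0 passed (limma), beside 0.234% of all probe sets as higher. In all, 3 of the 13 were at background on every array and 5 above it on every array.

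Some of these probe sets stood far higher on 1 array than on the others. The second probe set of STIL read 3.27 and 8.15 in Ov GDR, 3.41 and 3.43 in F1 GDR, and 3.17 and 3.34 in F1 GCs. That of BUB1 read 3.11 and 7.05 in Ov GDR and 2.78 to 2.96 elsewhere. Ov GDR A was thus far above the other Ov GDR array here, while the brightest probe sets of STIL and BUB1 differed by 0.59 and 0.76 in the same direction. The second probe set of NCAPG read 3.87 and 8.62 in Ov GDR and 4.62 and 3.79 in F1 GDR. In F1 GCs it was at background, with 2.58 and 2.47. Its Ov GDR mean was 11.1-fold over that background, which rested on Ov GDR A and is no firm minimum. The difference of this probe set from F1 GCs was 3.715 on the log2 scale and was not called. Its 95% interval from limma ran from −0.46 to 7.89. Of the 13 probe sets 3 were higher on Ov GDR A by more than 3, which was so for 1.67% of all probe sets. A dim probe set of TTK showed the same order at a lower level, with 3.08 and 5.58 in Ov GDR. The Ov GDR array without a suffix had the highest 3′ minus 5′ signal of the 6 arrays, and its part in these distances was not tested.

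**Figure D4:**
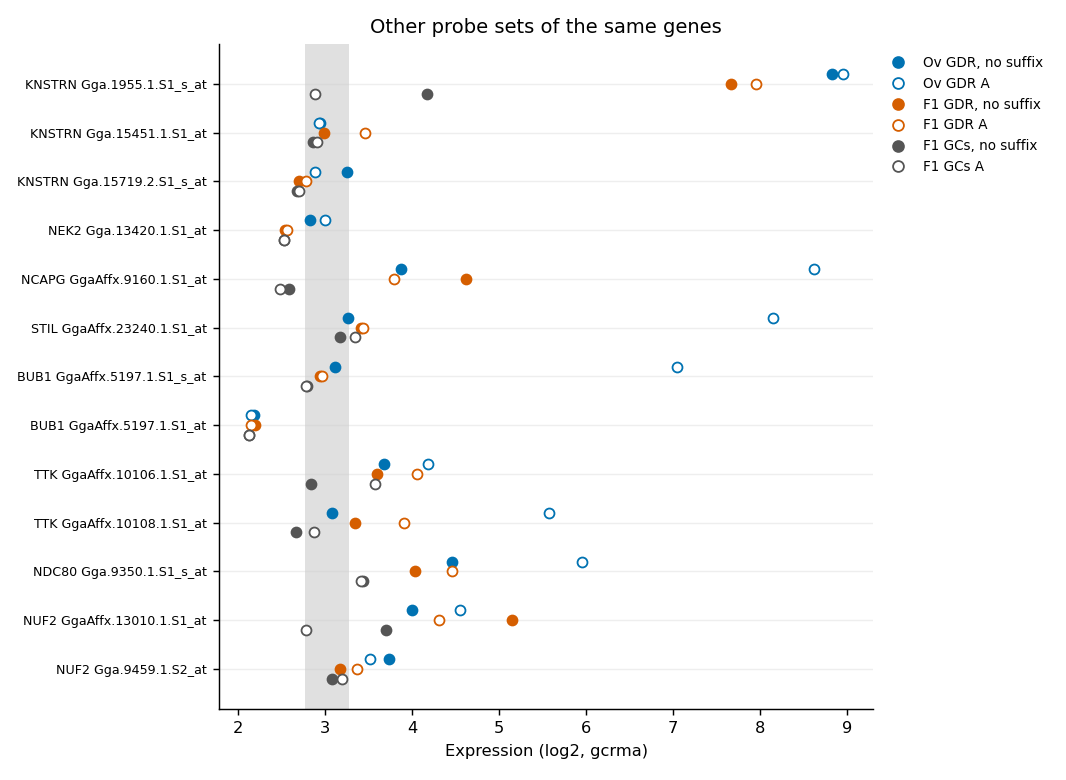
Log2 expression of the 13 further probe sets of the genes on each array (filled points: array without a suffix; open points: array A; grey band: range of the array backgrounds). Most lie near background, KNSTRN's second probe set repeats the order of its brightest one, and in NCAPG, STIL and BUB1 a single Ov GDR array stands at 8.62, 8.15 and 7.05.

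The other genes of the same machinery were read from lists of 124 symbols, 98 of which were measured, each by its brightest probe set. Between F1 GDR and F1 GCs 32 of the 98 were higher in F1 GDR, beside 4.34% of all genes, and 66 did not pass. In the opposite direction 0 passed with limma, beside 3.34% of all genes as lower. At an unadjusted p under 0.05 limma gave 1 as lower and the plain t-test 2, beside 1555 and 1427 of all 13009 genes. Their median difference was 1.88. Of the 98, 89 had a positive difference, as had 8154 of all 13009 genes. Between Ov GDR and F1 GCs 52 were higher in Ov GDR, beside 10.1% of all genes, 2 were lower, beside 12.2%, and 44 did not pass, with a median of 2.35. SMC1B, the cohesin core subunit of meiosis, was among the 52 with values at background in both groups.

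In the centromere and inner kinetochore list, 9 of 19 genes passed as higher in F1 GDR against F1 GCs and 12 did in Ov GDR. CENPH, a subunit of the inner kinetochore, read 9.19 and 9.16 in Ov GDR, 8.24 and 8.16 in F1 GDR, and 4.60 and 3.0 in F1 GCs. It was higher than in F1 GCs by 4.40 in F1 GDR (adjusted p = 0.033) and by 5.38 in Ov GDR (adjusted p = 0.00879). CENPL, its neighbour in the complex, was higher by 4.08 in F1 GDR (adjusted p = 0.0479), and HJURP, the chaperone that loads the centromeric histone, by 4.58 in Ov GDR (adjusted p = 0.0145). CENPO, a further inner kinetochore subunit, ran the opposite way. It read 6.64 and 5.06 in Ov GDR, 10.95 and 10.38 in F1 GDR, and 11.25 and 11.57 in F1 GCs. CENPO was thus lower in Ov GDR than F1 GCs by 5.56 (adjusted p = 0.00813) and lower than in F1 GDR by 4.81 (adjusted p = 0.0399), and a second probe set of it had the same direction, with 3.43 and 4.14 in Ov GDR and 10.33 and 10.71 in F1 GCs.

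Of the outer kinetochore list 4 of 9 genes passed as higher in F1 GDR against F1 GCs, and 4 did in Ov GDR. SPAG5, the partner of KNSTRN, read 6.80 and 7.58 in Ov GDR, 6.19 and 6.28 in F1 GDR, and 2.82 and 2.67 in F1 GCs, a difference from F1 GCs of 3.49 in F1 GDR (adjusted p = 0.0261) and of 4.45 in Ov GDR (adjusted p = 0.00484). SKA3, of a complex that keeps kinetochores on shrinking microtubules, was higher by 3.45 (adjusted p = 0.0356) and 3.86 (adjusted p = 0.0122). Of the spindle checkpoint list 4 of 11 genes passed as higher in F1 GDR and 6 did in Ov GDR. MAD2L1, which inhibits the anaphase promoting complex, was higher by 4.31 in F1 GDR (adjusted p = 0.0315) and by 4.81 in Ov GDR (adjusted p = 0.00987). CDC20, the activator it binds, was higher by 3.06 in F1 GDR (adjusted p = 0.0338). TRIP13, the ATPase that recycles the inhibitor, was higher by 3.62 in Ov GDR (adjusted p = 0.0192).

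The passenger complex and shugoshin list had 2 of 6 genes called as higher in F1 GDR and 3 called in Ov GDR. BIRC5, the survivin subunit that partners AURKB, read 7.57 and 9.52 in Ov GDR, 8.22 and 8.35 in F1 GDR, and 3.84 and 3.23 in F1 GCs, a difference from F1 GCs of 4.75 in F1 GDR (adjusted p = 0.0404) and of 5.01 in Ov GDR (adjusted p = 0.0171). GSG2, the haspin kinase that places the complex at centromeres, was higher in F1 GDR by 4.58 (adjusted p = 0.0244), and SGO1, which protects centromeric cohesin, in Ov GDR by 5.20 (adjusted p = 0.0197). In the condensin list 0 of 5 genes passed in F1 GDR with limma, and 3 passed in Ov GDR. SMC4, the ATPase partner of SMC2, had a difference of 4.61 in F1 GDR (adjusted p = 0.0612) and was higher in Ov GDR by 4.70 (adjusted p = 0.0333). TOP2A, the topoisomerase that untangles chromatids, was higher in Ov GDR by 2.68 (adjusted p = 0.0241).

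Cohesin, the ring that holds sister chromatids together, had the smallest median of the lists against F1 GCs, 0.55 in F1 GDR and 1.23 in Ov GDR. Of its 11 genes 1 was called in F1 GDR and 4 were called in Ov GDR, all as higher. A dimmer probe set of SMC3 went the opposite way. Its difference from F1 GCs was −1.64 in F1 GDR (adjusted p = 0.037) and −2.08 in Ov GDR (adjusted p = 0.00965). The brightest probe set of SMC3 differed by 1.02 and 1.22 and was not called. Of 106 further probe sets of pathway genes, 1 was called against the sign of the brightest in each of these comparisons. Few of the 106 were called at all, 6 in F1 GDR and 12 in Ov GDR against F1 GCs. Only 3 and 8 were called together with the brightest probe set of their gene, and 30 were at background on every array. Of all 38439 probe sets, 809 were called higher and 1187 lower in F1 GDR, and 2502 and 3284 in Ov GDR. PTTG2, annotated as a securin, was higher by 2.72 in F1 GDR (adjusted p = 0.033) and by 2.90 in Ov GDR (adjusted p = 0.0121). PDS5B, a regulator of the ring, was higher in Ov GDR by 1.75 (adjusted p = 0.0247) and differed by 0.33 in F1 GDR. Of 37 centriole and centrosome genes 12 were called as higher in F1 GDR and 20 were in Ov GDR. PLK1, a kinase of mitotic entry and spindle poles, was higher by 4.67 in F1 GDR (adjusted p = 0.0315). HAUS1, of the augmin complex that seeds spindle microtubules, was higher by 4.59 in F1 GDR (adjusted p = 0.0251) and by 5.56 in Ov GDR (adjusted p = 0.00486), and CEP152, which brings PLK4 to the centriole, by 5.54 in Ov GDR (adjusted p = 0.00509). NINL, a protein that anchors microtubules at the centrosome, was at background in Ov GDR and at least 1.91-fold lower there than in F1 GCs (adjusted p = 0.0241).

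**Figure D5:**
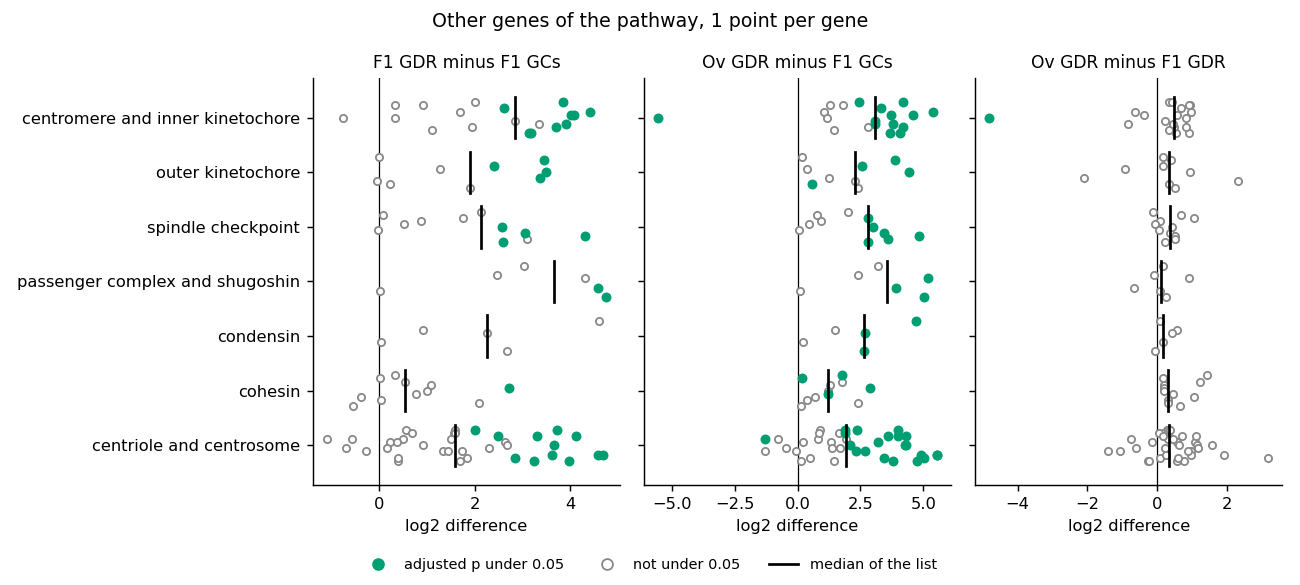
Log2 differences of the 98 other genes of the pathway, by list, in the 3 comparisons of groups (filled points: adjusted p under 0.05 with limma; open points: not under 0.05; bars: median of the list). Most called points lie right of 0 against F1 GCs, CENPO is the far left point against F1 GCs and against F1 GDR, and 0 points are called right of 0 between Ov GDR and F1 GDR.

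Between Ov GDR and F1 GDR 0 of the 98 genes were called higher with limma and 1, CENPO, lower. At an unadjusted p under 0.05 limma gave 12 as higher and the plain t-test 6, beside 1204 and 809 of all 13009 genes. As lower they gave 4 and 2, beside 1728 and 1018 of all genes. The median difference of the 98 was 0.34, beside 0.04 over all genes. CENPO was high in F1 GCs, with 11.25 and 11.57, and the part of the granulosa cells of F1 GDR in its call was not tested. The counts of pathway genes higher than in F1 GCs fell when any F1 GCs or F1 GDR array was left out. Without F1 GCs A the counts of all probe sets higher than in F1 GCs fell as well. Such fits leave a single array in a group, so their counts are not printed. CENPO passed as lower in Ov GDR than F1 GDR only while all F1 GDR and F1 GCs arrays were in the fit.

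The genes whose profile lay nearest to that of the 10 were sought among 7242 genes whose mean log2 reached 4 in 1 or more groups, by the root mean square distance over the 6 arrays from the median profile, after the mean of each gene had been taken out. The nearest were CKS1B with a distance of 0.21, ANO1 with 0.21, DEPDC7 with 0.23, CKAP2 and CKS2 with 0.27, and WNT6, KIF15 and MCM2 with 0.28. CKS1B and CKS2 bind cyclin dependent kinases, CKAP2 and KIF15 are proteins of the spindle, and MCM2 is a subunit of the replicative helicase. CKS1B read 12.80 and 13.27 in Ov GDR, 12.39 and 12.36 in F1 GDR, and 8.13 and 6.64 in F1 GCs. ANO1, a chloride channel, read 9.25 and 9.97, 8.46 and 8.52, and 5.14 and 2.90 in the same order. Among the 10 genes themselves SMC2, STIL and BUB1 lay nearest to their common median, with 0.18, 0.20 and 0.24, and TTK farthest, with 1.81.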

How the data were processed

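RNA of 6 tissue pools was amplified, labelled with biotin and hybridized to Affymetrix chicken arrays. The authors ran gcrma on all arrays at once, and the deposited log2 values, 1 per probe set, were used without further scaling, with F1 GDR A given to 2 decimals. The gcrma version is not given in the sources used here, and the labels and the paper differ in RNA amounts and light period. After removal of 96 Affymetrix controls from 38535 probe sets, 38439 were tested, with no filter on signal. Symbols came from the platform annotation (27168 probe sets with 1 symbol, 177 with several, 11094 with none), and a gene was represented by its brightest probe set. A group is at background where both arrays are at or under their background, and a fold against it is given as at least the fold over that background. The 10 symbols were matched to RefSeq by Entrez ID. Sequences and genome positions were not used here.

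Groups were compared two-sided with limma 3.58.1 in R 4.3.3, in 1 fit of all 6 arrays with a mean-variance trend, 3 residual and 1.66 prior degrees of freedom, and Benjamini-Hochberg adjustment over all probe sets; called means an adjusted p under 0.05. With 2 arrays per group the smallest exact permutation p is 0.333, and p-values measure only the spread between these pools. The script was tested on simulated data. The genes, the 7 pathway lists, the marker lists and the tests were chosen with earlier results of these data known. Named are all probe sets of the 10 genes, up to 2 called genes per pathway list, comparison and direction, marker genes, and the 8 genes of nearest profile. SMC1B was named after its values were seen, and SMC3 for a probe set that disagreed in direction with its brightest one. The alternatives were no trend, the suffix as a block, a fit of only the 2 groups compared, a minimum mean log2 of 4, equal reporter gene means, a plain t-test whose variance comes from each probe set alone (without the grouping of variances that the methods used), Bonferroni, a minimum log2 difference of 1, the most variable probe set per gene, and each array left out. The search for promoter motifs was not run.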

Additional observations from a re-analysis of the deposited data

How the results depend on the processing

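Of 480 member differences under alternatives none turned a called direction, but most of them could not. Alternatives that change only the test or the threshold leave the difference itself as it is. Leaving out an array cannot turn a difference from F1 GCs, since the members do not overlap with F1 GCs. Between Ov GDR and F1 GDR no member difference was called at all. Counts moved as follows. Without a trend the members higher in F1 GDR than F1 GCs were 4 in place of 8, and 0 pathway genes were lower in Ov GDR than F1 GDR. With only the 4 arrays compared, 1 pathway gene was lower in F1 GDR than F1 GCs, 31 were higher and 1 lower in Ov GDR than F1 GCs, 5 members were higher there, and 0 pathway genes were lower in Ov GDR than F1 GDR. The labels do not say whether the suffix pairs the arrays. Deviations of arrays of the same suffix correlated at −0.153, 0.168 and −0.145, which cannot decide it with 2 pools per group. With the suffix as a replicate block 0 pathway genes and 0 members were higher in F1 GDR than F1 GCs. In that fit 1 pathway gene was lower in Ov GDR than F1 GCs and 0 lower than in F1 GDR, and the other counts were within 1.5 times. With a minimum mean log2 of 4 the pathway counts were 51 higher and 1 lower in F1 GDR than F1 GCs, and 2 higher and 2 lower in Ov GDR than F1 GDR. With equal reporter gene means they were 55 higher in F1 GDR than F1 GCs, 1 lower in Ov GDR than F1 GCs and 6 higher in Ov GDR than F1 GDR, where 1 member was called. That scaling moved the median of all probe sets by 0.43 and 0.46 for Ov GDR against F1 GCs and F1 GDR, and the share of calls that were higher in Ov GDR than F1 GCs from 43.2% to 57.3%. The plain t-test, which leaves out the variance grouping of the methods, with either adjustment, and limma with Bonferroni, gave 0 for every count of members and pathway genes. The paper's own test, with that grouping and Bonferroni, lists the brightest probe sets of KNSTRN and AURKB as higher in Ov GDR than F1 GCs. With the most variable probe set 1 pathway gene was lower in F1 GDR than F1 GCs. Each array left out in turn gave, against F1 GCs, 0 to 44 pathway genes higher and 0 to 1 lower in F1 GDR with 0 to 7 members, and 7 to 67 higher and 0 to 4 lower in Ov GDR with 5 to 10 members. For Ov GDR against F1 GDR it gave 0 to 12 pathway genes higher and 0 to 4 lower, with 0 members. The causes were not tested. With 2 pools per group the number of arrays limits the precision, and values near background understate differences.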
